A study of Mus musculus with 2 samples.

Results

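The barcodes described here were droplets whose RNA was mostly haemoglobin messenger RNA, the mark of red blood cells and of reticulocytes, the youngest red cells in blood. They came from single-cell libraries made of whole mouse brain, from a sort meant to collect endothelial cells and astrocytes. A barcode was included when it held at least 1000 unique molecular identifiers (UMIs, each counting 1 captured messenger RNA molecule) of which at least 50% belonged to the adult globin genes Hba-a1, Hba-a2, Hbb-bs and Hbb-bt. No lower limit on the number of genes was set. The rule was met by 2277 of 9301 barcodes, 1625 of 5400 in the library labelled IL34LacZ/LacZ and 652 of 3901 in the library labelled IL34LacZ/+. The design text calls IL34LacZ/LacZ mice knockout and IL34LacZ/+ mice wild type. Both carry at least 1 LacZ allele of Il34, the gene of a ligand of the receptor Csf1r, so no library without that allele was measured. The mice were adult. How many there were, their exact age and the markers of the sort are not stated in the labels. Titles of the samples give astrocytes, and a separate field adds endothelial cells, and the barcodes described here were neither. There was 1 library per genotype, so no difference below has a replicate check and no p-value was computed. All intervals are exact 95% intervals that cover counting error only.

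Red cell precursors expel their nucleus late in development and leave the marrow as reticulocytes that still carry ribosomes, mitochondria and a store of messenger RNA. With no nucleus, the reticulocyte makes no further transcripts. Over its last days the cell clears its organelles by autophagy and by ubiquitin-dependent breakdown, finishes haemoglobin synthesis and loses its remaining RNA. In mouse blood the beta chain of adult haemoglobin comes from Hbb-bs and Hbb-bt and the alpha chain from Hba-a1 and Hba-a2, and Alas2 makes the erythroid form of the first enzyme of haem synthesis.

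The haemoglobin share split the barcodes into separate groups. Of the barcodes with at least 1000 UMIs, 39.9% (38.4 to 41.4) of 4074 in the library labelled IL34LacZ/LacZ met the rule, against 21.4% (19.97 to 22.9) of 3045 in the library labelled IL34LacZ/+. They held 48.14% and 30.01% of all UMIs in these libraries and 98.98% and 98.76% of the adult globin UMIs. With 1 library each, genotype, mouse, sort and library cannot be told apart as the source of this difference. The haemoglobin share was at least 90% in 1552 and 623 members, and only 37 and 14 barcodes lay between 5% and 50%. The member nearest the threshold had 51.0% haemoglobin (3311 genes, 23241 UMIs) in the library labelled IL34LacZ/LacZ and 50.6% (1754 genes, 9186 UMIs) in the library labelled IL34LacZ/+. The barcodes just outside it had 49.3% (717 genes, 4312 UMIs) and 44.2% (3957 genes, 30616 UMIs). None of the 1326 and 856 barcodes of 500 to 999 UMIs reached 50% haemoglobin.

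Haemoglobin-rich barcodes were deep in UMIs but held few genes. Their median was 11003 UMIs and 135 genes in the library labelled IL34LacZ/LacZ and 12647.5 UMIs and 153 genes in the library labelled IL34LacZ/+. Other barcodes with at least 1000 UMIs had medians of 3715 and 5371 UMIs and of 1527 and 2040 genes. A limit of 500 genes would have kept 34 and 17 haemoglobin-rich barcodes. Mitochondrially encoded genes gave a median of 0.259% and 0.185% of UMIs, against 16.6% and 8.30% in other barcodes. These are shares of all UMIs, which in members were mostly globin by the rule. They therefore do not compare mitochondrial levels outside globin. The low number of genes is likewise partly set by the rule, since few UMIs were left outside globin. The 2 libraries shared 8 barcode sequences, of which 3 met the rule in 1 library and none in both.

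**Figure D1:**
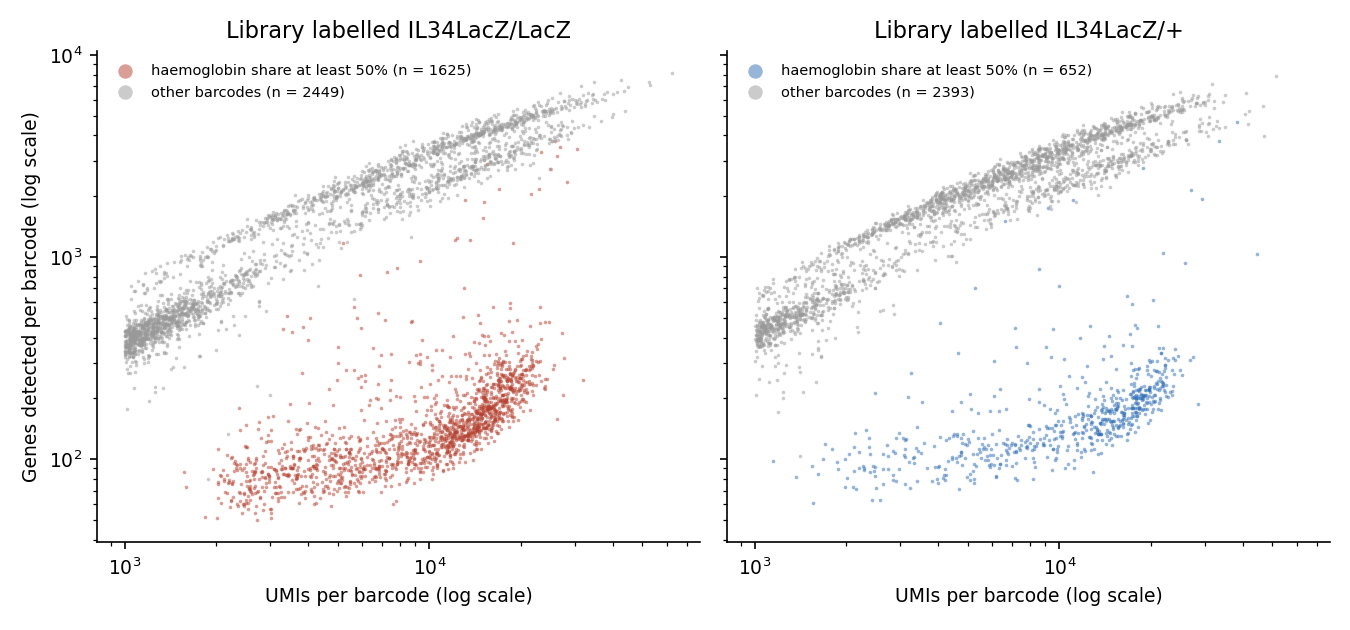
Genes detected against UMIs per barcode, both on log scales, for the library labelled IL34LacZ/LacZ (left, 1625 haemoglobin-rich barcodes in red) and the library labelled IL34LacZ/+ (right, 652 in blue); grey points are the 2449 and 2393 other barcodes with at least 1000 UMIs. Haemoglobin-rich barcodes form a band of their own with medians of 135 and 153 genes, below the other barcodes at like depth. The choice by globin share partly sets this.

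Haemoglobin tags were also present at a low level everywhere. The other barcodes held a median of 14 and 13 adult globin UMIs, and barcodes with at least 4 of 10 endothelial markers held 14 and 12. Alas2 was detected in 95.6% (94.5 to 96.5) and 95.2% (93.3 to 96.7) of haemoglobin-rich barcodes, against 3.75% and 2.78% of the 320 and 540 endothelial-marker barcodes, whose median depth was 4974 and 4638.5 UMIs. With every barcode thinned to 1000 UMIs, Alas2 was detected in 66.6% and 62.9% of haemoglobin-rich barcodes and in 1.56% and 0.926% of endothelial-marker barcodes. Bpgm, which makes the enzyme that sets 2,3-bisphosphoglycerate and so the oxygen affinity of haemoglobin, was detected in 77.6% and 79.8% of members and in 8.44% and 10.2% of endothelial-marker barcodes. The defining markers of red cells, Hbb-bs, Hba-a1, Alas2 and Bpgm, were all present. Hbb-bs and Hba-a1 served to choose the barcodes, and Alas2 and Bpgm did not.

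Il34 itself had 7 UMIs in haemoglobin-rich barcodes of the library labelled IL34LacZ/LacZ and 4 in those of the library labelled IL34LacZ/+, and 280 and 170 in other barcodes with at least 1000 UMIs. By count, tags were therefore more numerous where the label says knockout. These counts are not scaled to the pools, which were 1625 and 652 haemoglobin-rich barcodes and 2449 and 2393 others. Where LacZ was inserted is not stated in the labels, and a 3′ tag outside the removed part checks nothing. Every direction between libraries below rests on the labels.

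In GENCODE M21 on GRCm38, Hbb-bs lies at chr7:103826534-103828096 and Hbb-bt at chr7:103812524-103813996, both on the minus strand. Hba-a1 lies at chr11:32283511-32284465 and Hba-a2 at chr11:32296489-32297298, both on the plus strand.

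The promoters of the genes that dominate these barcodes are shown because globin transcripts make up nearly all UMIs and Alas2 is the most abundant gene of the erythroid lists outside them. Each line gives the 250 bases before the RefSeq start site on the gene's strand, in GRCm38.p6: Hbb-bs at chr7:103827929-103828178 (minus strand), Hbb-bt at chr7:103813924-103814173 (minus strand), Hba-a1 at chr11:32283422-32283671 (plus strand) and Alas2 at chrX:150547167-150547416 (plus strand). Capitals mark, on either strand, 4 motifs: GATA with A or T before it and A or G after it (the word read by Gata1), CACCC (the word read by Klf1), CCAAT boxes, and the TATAA word of core promoters. Where matches overlap or adjoin, as the TATAA matches of both strands do in Alas2, the capitals run together.
Hbb-bs: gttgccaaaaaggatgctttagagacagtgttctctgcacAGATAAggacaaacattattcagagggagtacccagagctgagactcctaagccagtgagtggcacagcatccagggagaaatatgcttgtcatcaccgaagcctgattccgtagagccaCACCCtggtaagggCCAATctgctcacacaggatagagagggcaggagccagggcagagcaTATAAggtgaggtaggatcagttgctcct
Hbb-bt: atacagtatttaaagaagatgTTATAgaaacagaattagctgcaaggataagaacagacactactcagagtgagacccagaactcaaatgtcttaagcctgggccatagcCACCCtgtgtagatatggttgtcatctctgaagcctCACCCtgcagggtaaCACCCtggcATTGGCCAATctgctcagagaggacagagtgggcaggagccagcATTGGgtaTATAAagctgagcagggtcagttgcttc
Hba-a1: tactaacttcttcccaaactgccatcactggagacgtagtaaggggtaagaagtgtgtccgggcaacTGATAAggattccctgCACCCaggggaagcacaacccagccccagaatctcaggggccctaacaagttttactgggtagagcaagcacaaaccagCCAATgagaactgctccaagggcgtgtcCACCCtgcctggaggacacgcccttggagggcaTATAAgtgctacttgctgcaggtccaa
Alas2: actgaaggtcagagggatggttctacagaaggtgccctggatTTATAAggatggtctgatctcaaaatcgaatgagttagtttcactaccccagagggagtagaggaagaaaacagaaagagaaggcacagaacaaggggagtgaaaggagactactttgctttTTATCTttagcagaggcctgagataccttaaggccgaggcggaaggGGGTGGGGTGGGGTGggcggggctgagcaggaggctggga

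Hbb-bs and Hba-a1 each held a match to all 4 motifs, with TATAA beginning 29 and 27 bases before the start. Of 32851 promoters of the same length, 1.08% held all 4. Hbb-bt held CACCC 3 times, CCAAT and TATAA, with no GATA word in this window. Alas2 held a GATA word on the minus strand and CACCC 3 times on the minus strand, side by side. Over all promoters the GATA words occurred in 26.5%, CACCC in 52.0%, CCAAT in 33.8% and TATAA in 22.8%. Among 191 promoters of 150 genes over 4-fold in haemoglobin-rich barcodes, the shares were 24.6% for GATA, 60.2% for CACCC, 41.9% for CCAAT and 11.5% for TATAA. A match is a description of letters and not a bound site.

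Hbb-bs was the most abundant transcript, with a median of 5416 UMIs per member in the library labelled IL34LacZ/LacZ and 5895 in the library labelled IL34LacZ/+. It was followed by Hba-a1 at 2459 and 3019, Hba-a2 at 1836 and 2257, and Hbb-bt at 776 and 911. Each UMI is 1 tag at the 3′ end of a molecule, so these levels are not scaled by transcript length. Hba-a1 and Hba-a2 differ at 1 of 538 aligned transcript bases in GENCODE M21, so their split rests on how the authors' counting placed near-identical reads and is uncertain. Hbb-bs and Hbb-bt differ at 46 of 626 aligned bases.

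Beta globin made up 58.1% (58.06 to 58.10) of adult globin UMIs in the library labelled IL34LacZ/LacZ and 55.1% (55.03 to 55.10) in the library labelled IL34LacZ/+. The middle 50% of single barcodes ran over 55.7% to 60.4% and over 52.7% to 57.2%, and these ranges overlapped. Other barcodes had beta shares of 61.6% and 59.2%, in the same order. Hba-a2 gave 43.2% and 42.9% of alpha globin UMIs. Hbb-bt gave 14.97% and 15.22% of beta globin UMIs in all, but ranged over 0% to 29.7% and 0.325% to 26.8% among single barcodes.

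Embryonic globins were nearly absent. Hbb-y had 5 and 2 UMIs, Hbb-bh1 had 1 and 0, and Hba-x and Hbb-bh2 had none. The theta-type genes Hbq1a and Hbq1b, members of the alpha cluster, were detected in 13.5% and 19.8% and in 10.5% and 12.1% of members, with 300 and 183 and with 216 and 107 UMIs. In other barcodes they had 2 and 6 and 1 and 2 UMIs.

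Outside the adult globin and mitochondrial genes, 4.516% and 4.197% of member UMIs were left. This remainder was 797788 UMIs in the library labelled IL34LacZ/LacZ and 336036 in the library labelled IL34LacZ/+, a median of 342 and 352 UMIs per barcode. It was concentrated in few genes: 28 and 49 genes gave 50% of it. Levels below are counts per 1000000 UMIs of the remainder (CPM), and fold values set them against other barcodes with at least 1000 UMIs of the same library. Because the barcodes were chosen by haemoglobin, these folds are descriptions. Of 4816 genes with at least 20 UMIs in members, 199 (4.13%) were over 4-fold higher than in other barcodes in both libraries, and they made up 60.6% and 53.6% of the remainder. Of the 199, 55 belonged to the erythroid lists by role. These lists, 119 genes in the files, held 25.1% (25.002 to 25.19) and 25.6% (25.5 to 25.8) of the remainder and 1.63% and 1.43% of that in other barcodes.

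**Figure D2:**
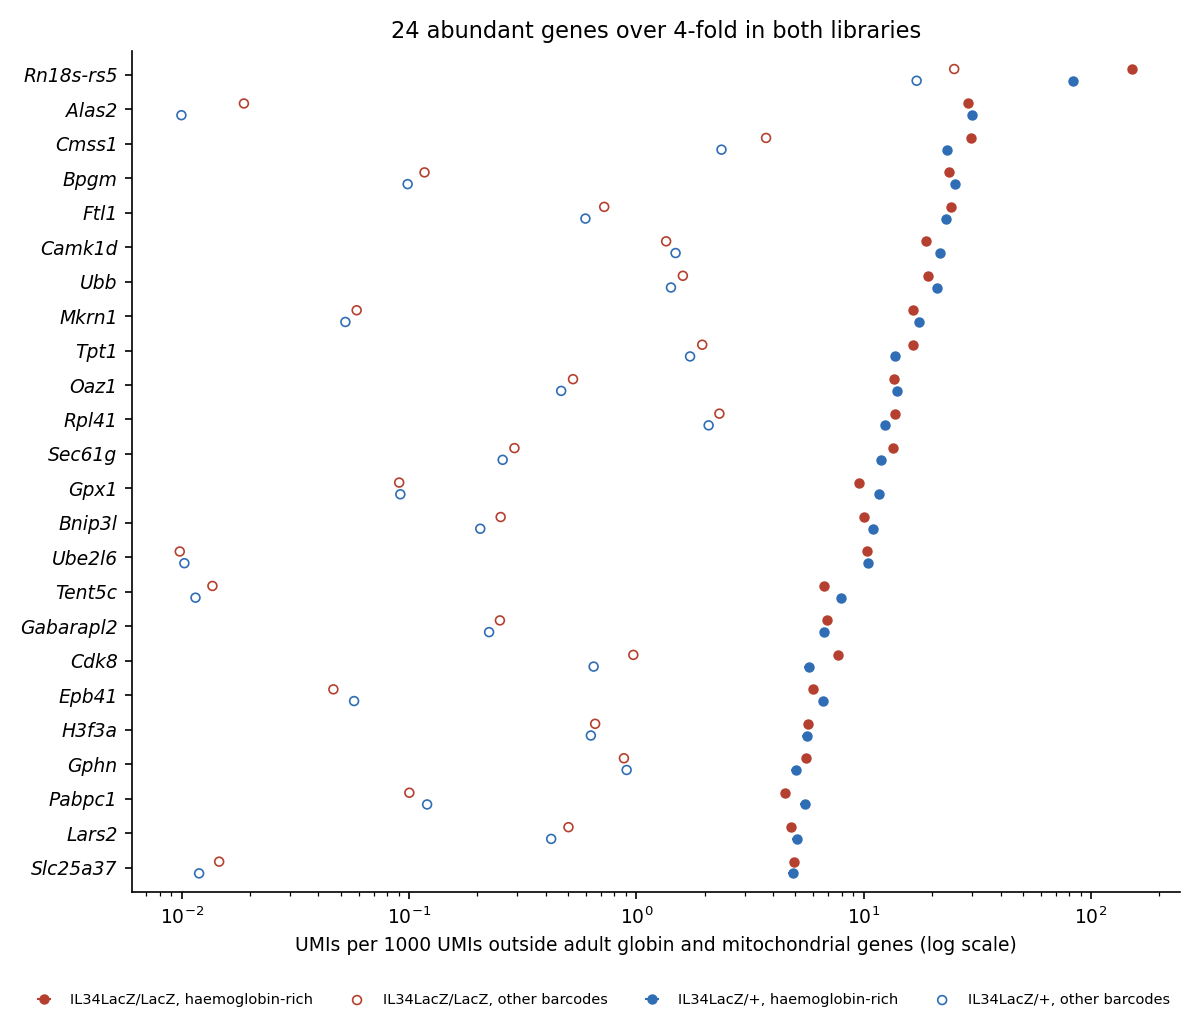
Level of 24 of the 25 most abundant genes that were over 4-fold higher in haemoglobin-rich than in other barcodes in both libraries, as UMIs per 1000 UMIs of the remainder on a log scale. Filled points are haemoglobin-rich barcodes with exact Poisson intervals (smaller than most points), open circles other barcodes, red for IL34LacZ/LacZ and blue for IL34LacZ/+. Filled points of the libraries lie close together for most genes, while open circles lie to the left of them, for Alas2 by 1523-fold and 2989-fold.

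Haem synthesis was carried by few genes. Alas2 reached 28632 CPM in the library labelled IL34LacZ/LacZ and 29824 in the library labelled IL34LacZ/+, 1523-fold and 2989-fold over other barcodes. Ferrochelatase, encoded by Fech, inserts iron into the ring and reached 3863 and 4139. Slc25a39, a mitochondrial carrier of glutathione, reached 3465 and 3803. Enzymes between the first and the last step were low: Urod had 89 and 62 UMIs, Cpox 35 and 16, and Alad 7 and 1. In all, 8 of 13 genes of the list found in the files had at least 20 UMIs and 3 were over 4-fold.

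Among iron genes, those of storage and cluster assembly were more abundant than the uptake receptor. Ftl1, the ferritin light chain that stores iron, was at 24126 and 23126 CPM and 33.4-fold and 38.7-fold over other barcodes. Fth1, the ferritin heavy chain, was at 9207 and 8472 but only 1.35-fold and 1.55-fold. Slc25a37, mitoferrin, brings iron into mitochondria and stood at 4949 and 4877, 338-fold and 409-fold. Isca1, Iscu and Glrx5, which assemble iron-sulphur clusters, ran over 1129 to 2615 in the library labelled IL34LacZ/LacZ and over 1131 to 3223 in the library labelled IL34LacZ/+. Ncoa4, which delivers ferritin to autophagy, was at 1665 and 1634. Tfrc, the transferrin receptor that reticulocytes shed as they mature, had 74 and 23 UMIs in 33 and 14 barcodes and was lower in CPM than in other barcodes, 0.797-fold and 0.336-fold. Those other barcodes include the endothelial-marker barcodes, of which 72.8% and 78.0% held Tfrc. Of 13 iron genes, 9 had at least 20 UMIs and 6 were over 4-fold.

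Membrane and skeleton transcripts were mostly enriched but sparse. Epb41, protein 4.1, which ties spectrin to the membrane, was the most abundant at 5994 and 6609 CPM. Cd24a, a surface antigen of young red cells in mice, stood at 2333 and 1997. Slc4a1, the anion exchanger band 3, had 532 and 229 UMIs and was detected in 14.03% and 14.88% of members, against 0.625% and 0 of 540 endothelial-marker barcodes, where a limit of 3 counts allows a share of barcodes with a UMI of up to 0.556%. Sptb, a beta spectrin, had 29 and 16 UMIs and ankyrin, Ank1, had 38 and 22. Of 26 genes, 21 had at least 20 UMIs and 14 were over 4-fold. Tspo2, a protein of red cell precursors that binds cholesterol, had 331 and 118 UMIs, against 2 and 2 in all other barcodes.

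Gas transport and redox genes were led by Bpgm, at 23773 and 25316 CPM and 203-fold and 257-fold over other barcodes. Gpx1, a glutathione peroxidase, reached 9579 and 11662, in 41.5% and 45.1% of barcodes. Prdx2, the peroxiredoxin of red cells, was at 3109.8 and 2833, Cat, catalase, at 808 and 637, and Blvrb, biliverdin reductase B, at 1448 and 1027. Car2, carbonic anhydrase 2, was at 3166 and 2598, only 2.19-fold and 2.25-fold over other barcodes, where oligodendrocytes and choroid plexus also make it. Car1 had 9 and 4 UMIs and Pklr, the red cell pyruvate kinase, had none. Of 18 genes, 14 had at least 20 UMIs and 9 were over 4-fold.

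Genes of protein breakdown and organelle clearance took the largest share of the erythroid lists, 7.81% and 8.18% of the remainder. Ubb, polyubiquitin, was at 19224 and 21054 CPM, and Mkrn1, a ubiquitin ligase, at 16548 and 17578. Ube2l6, the conjugating enzyme for Isg15, was at 10334 and 10407, 1053-fold and 1012-fold over other barcodes. Bnip3l, also called Nix, is the receptor through which reticulocytes remove mitochondria and reached 10057 and 10978. The autophagy proteins Gabarapl2 and Map1lc3b were at 6907 and 6675 and at 3933 and 3538, and Ube2o, an enzyme that clears ribosomal proteins from reticulocytes, at 2568 and 2491. Of 25 genes, 23 had at least 20 UMIs and 14 were over 4-fold.

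Among regulators, Gata1 and Klf1 were at the floor, while Tent5c and Isg20 were abundant. Gata1, a transcription factor of red cell development, had 1 and 0 UMIs, Klf1, another, had none, and Epor, the erythropoietin receptor, had 2 and 0. Tent5c, a poly(A) polymerase, was at 6691 and 7981 CPM, 489.7-fold and 693-fold over other barcodes, and Isg20, an exonuclease, at 4792 and 4663 with detection in 60.5% and 66.1% of barcodes. Other transcription regulators were present at a low level, Lmo2 at 286 and 315 and E2f2 at 233 and 286, both over 4-fold in both libraries. Of 24 genes, 18 had at least 20 UMIs and 9 were over 4-fold.

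The other 144 genes over 4-fold lay outside these lists. Rn18s-rs5, a ribosomal RNA sequence, was the largest single feature, with 100% of barcodes positive, 15.1% of the remainder in the library labelled IL34LacZ/LacZ and 8.31% in the library labelled IL34LacZ/+. It was also the gene of largest difference in level between the libraries among the 25, and in other barcodes it held 2.50% and 1.71%. Oaz1, which curbs polyamine synthesis, was at 13646 and 13954 CPM, Tpt1 at 16452 and 13763, and Sec61g, a subunit of the translocon, at 13521 and 11909. The 94 ribosomal protein genes gave 6.82% and 6.33% of the remainder, against 5.15% and 4.77% in other barcodes. Cmss1, Camk1d, Cdk8, Gphn and Lars2 were detected in 85.4% to 99.6% of barcodes of the library labelled IL34LacZ/LacZ and in 86.0% to 98.9% of those of the library labelled IL34LacZ/+, with Cmss1 at 29552 and 23176. Rec114, Gda and Apol11b, named after their values were seen, were at 1904 and 2782, at 1534 and 1908 and at 1304 and 982, with at most 108 UMIs in all other barcodes of a library.

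Transcripts of other cell types were low but not absent. Of 10 platelet genes, 8 and 9 were at 0, Pf4 and Ppbp among them, and Nrgn, which neurons also express, gave 61 and 26 UMIs. Of 10 neutrophil genes, 7 and 9 were at 0, and 7 and 8 of 10 monocyte and lymphocyte genes. Ttr, a choroid plexus transcript, was detected in 97.3% and 98.6% of members and in 97.5% and 99.6% of endothelial-marker barcodes. It had a median of 4 and 5 UMIs per haemoglobin-rich barcode and 7 and 9 in other barcodes. The oligodendrocyte list gave 0.471% and 0.432% of the remainder and the astrocyte list 0.173% and 0.304%, both below their share in other barcodes, as were the choroid plexus, pericyte, fibroblast and endothelial lists. The neuron list was lower in the library labelled IL34LacZ/LacZ, 0.0535% against 0.0842% in other barcodes, and higher in the library labelled IL34LacZ/+, 0.152% against 0.0897%. Of the microglia markers, Csf1r had 4 and 6 UMIs, Cx3cr1 6 and 5 and P2ry12 0 and 5.

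Some members also held another cell's markers. At least 3 markers of 1 other list were detected in 169 members (10.4%) of the library labelled IL34LacZ/LacZ and in 95 (14.6%) of the library labelled IL34LacZ/+, mostly oligodendrocyte (93 and 57) and astrocyte (60 and 36). They held 27.7% and 33.4% of the remainder and a median of 278 and 218 genes, against 129 and 147 in the others. How these markers came to be in the same barcodes was not tested. Leaving them out left 1456 and 557 barcodes, in which the erythroid lists gave 30.1% and 33.0% of the remainder.

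Among these 1456 and 557 barcodes the makeup varied strongly from one to the next. The Hbb-bt share of beta globin followed the number of UMIs, with a Spearman correlation across barcodes of 0.88 (n = 1456) in the library labelled IL34LacZ/LacZ and 0.82 (n = 557) in the library labelled IL34LacZ/+. Points in each share a library, and depth is itself on the axis, so this is a description. Shares under 5% were found in 471 and 135 barcodes, shares of 5% to 10% in 179 and 69, and shares of 15% to 20% in 399 and 176.

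**Figure D3:**
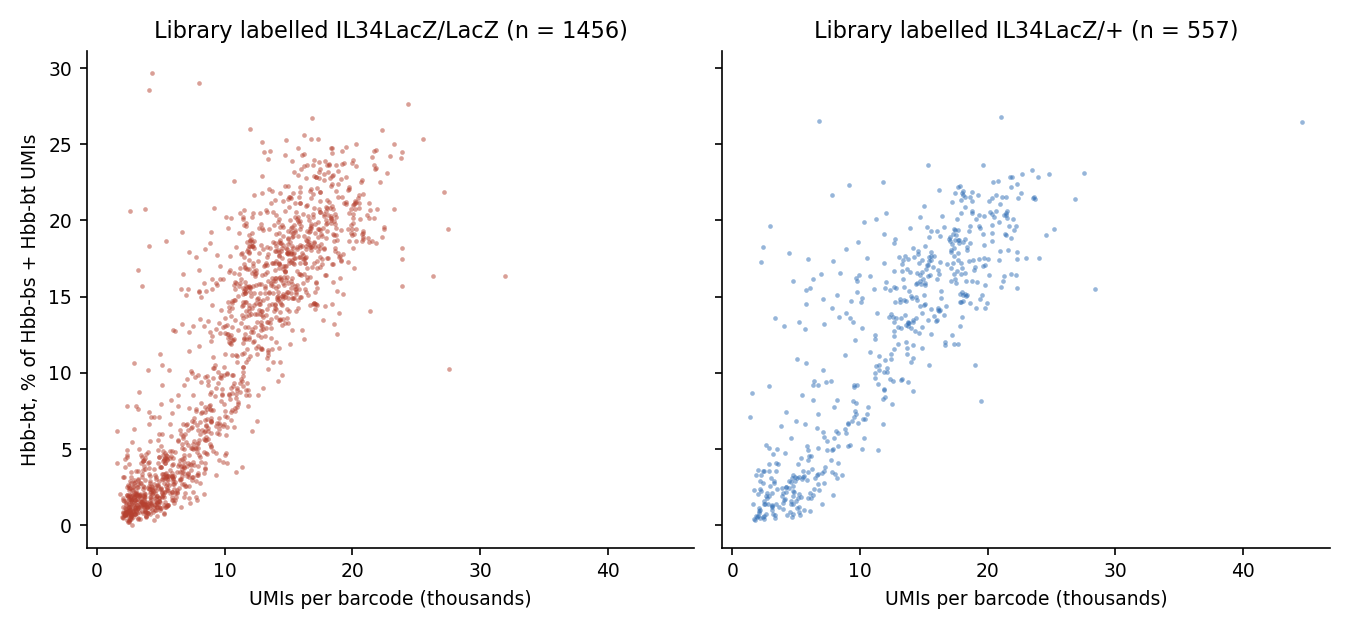
Share of Hbb-bt in beta globin UMIs (percent) against UMIs per barcode (in units of 1000) for haemoglobin-rich barcodes without markers of another cell type, 1456 in the library labelled IL34LacZ/LacZ (left) and 557 in the library labelled IL34LacZ/+ (right). Of barcodes under 5000 UMIs, 301 of 328 and 85 of 102 lie under 5%, and of those over 15000 UMIs, 334 of 371 and 174 of 209 lie between 15% and 25%.

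Barcodes were then divided into 3 groups of equal size by Hbb-bt share, a division chosen after these values had been seen. In the library labelled IL34LacZ/LacZ the bottom, middle and top groups had medians of 4203, 11423 and 16193 UMIs and of 90, 129 and 186.5 genes. The library labelled IL34LacZ/+ had 4971, 13707 and 17892 UMIs and 106, 151 and 198 genes. Bpgm was detected in 44.3%, 87.4% and 98.8% of barcodes in the library labelled IL34LacZ/LacZ and in 47.3%, 94.1% and 98.9% in the library labelled IL34LacZ/+. Erythroid lists gave 12.8%, 28.5% and 36.6% of the remainder in the library labelled IL34LacZ/LacZ and 16.1%, 34.0% and 38.1% in the library labelled IL34LacZ/+. In both libraries the order bottom, middle, top was the same for UMIs, genes, Bpgm and the erythroid lists. The number of genes and the detection of Bpgm depend on depth, which differed between the groups. Neither is given at equal depth.

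Of 131 genes over 4-fold in haemoglobin-rich barcodes with at least 200 UMIs, 49 had over 4 times the share of the remainder in the top than in the bottom group in both libraries and 1, Camk1d, the reverse. Genes outside these 131 were not counted in this way, so no share over all genes stands beside these counts. The 131 had to pass 4-fold in all members pooled, where the top group weighs more than the bottom group. Its median remainder was 572.5 UMIs against 187 in the library labelled IL34LacZ/LacZ and 537.5 against 189.5 in the library labelled IL34LacZ/+. The choice thus favours genes high in the top group, and the counts are partly set by it. Gpx1 was at 124, 7555 and 17548 CPM from bottom to top in the library labelled IL34LacZ/LacZ, and at 843, 12983 and 21530.5 in the library labelled IL34LacZ/+. Slc4a1 was at 31.1, 489 and 1212 and at 52.7, 945 and 1186. Mkrn1 had 2104, 19133 and 26141 against 4506, 24855 and 28034. These transcripts were thus largely in barcodes with a high Hbb-bt share, while others differed less: Alas2 had 24522, 40146 and 35371 in the library labelled IL34LacZ/LacZ and 28695, 42884 and 38623 in the library labelled IL34LacZ/+, and Ftl1 had 25082, 33903 and 28558 and 27852, 34919 and 26663. Epb41 had a log2 ratio of top over bottom of 0.60 and 0.45.

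Lower in the top group were Camk1d at −2.11 and −2.30 (log2 of top over bottom), Lars2 at −1.76 and −1.99, Gphn at −1.72 and −1.75, Rn18s-rs5 at −0.91 and −0.86 and Rpl41, a ribosomal protein, at −0.81 and −0.84. The Rn18s-rs5 share of the remainder was 26.38%, 19.44% and 14.03% from bottom to top in the library labelled IL34LacZ/LacZ and 14.51%, 10.86% and 8.004% in the library labelled IL34LacZ/+. Ttr was 1.85%, 1.11% and 0.777% in the library labelled IL34LacZ/LacZ and 2.14%, 1.29% and 0.942% in the library labelled IL34LacZ/+, highest in the bottom group. Its part in the result was not tested. A comparison within 6000 to 12000 UMIs, of barcodes under 6% (122 and 38) with barcodes of at least 12% (147 and 39), narrowed the depth gap to 10777 against 7267 UMIs in the library labelled IL34LacZ/LacZ and 9695 against 7233.5 in the library labelled IL34LacZ/+. There, 28 of the 131 genes were over 4-fold higher and none over 4-fold lower in both libraries. Here too, no share over all genes was computed, and the choice of the 131 genes favours those high at a high Hbb-bt share. Mkrn1 was at 19226 against 4096 CPM in the library labelled IL34LacZ/LacZ and at 25622 against 4477 in the library labelled IL34LacZ/+, and Bpgm at 24223 against 9685 and at 34754 against 6879. Alas2 was at 42071 against 37408 and at 38390 against 37890.4.

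**Figure D4:**
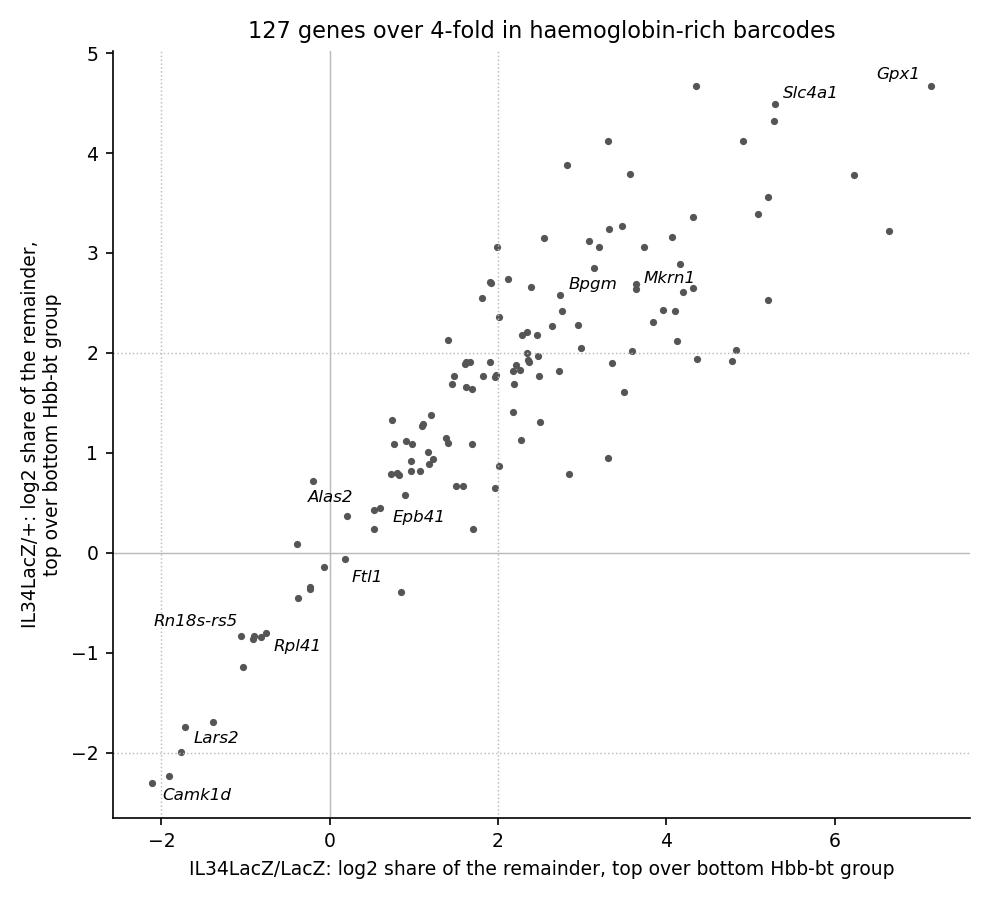
Log2 ratio of the share of the remainder between the top and the bottom of 3 groups of barcodes by Hbb-bt share, for 127 of 131 genes (4 had no UMI in a bottom group), in the library labelled IL34LacZ/LacZ (x axis) and the library labelled IL34LacZ/+ (y axis). Dotted lines mark 4-fold. Above 0 in both libraries lie 108 genes and below 0 in both 15, with Gpx1 at 7.14 and 4.67, while Camk1d lies at −2.11 and −2.30. The genes were chosen in all members pooled, which favours genes high in the top group.

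Between the libraries, 71.3% of genes in the remainder of haemoglobin-rich barcodes lay within 1.5-fold. Of these 1860 genes with at least 50 UMIs, 47 (2.53%) were over 2-fold higher and 192 (10.3%) over 2-fold lower in the library labelled IL34LacZ/LacZ. The median log2 ratio was −0.15, and −0.04 with Rn18s-rs5 left out of the total. With the 169 and 95 barcodes that held another cell's markers left out, 5 genes were higher and 33 lower, and 20 of these calls were among the first 239. The genes of lowest ratio rested on single barcodes. Of 2 and 115 Ttn UMIs, 99.1% of those in the library labelled IL34LacZ/+ were in 1 barcode, and 99.1% for Cemip. The lowest ratios, Ttn, Cacna2d3, Asic2, Cemip, Grin2a, Meis2, Gria1 and Nrg1, ran over log2 −7.09 to −2.98, and 1 barcode held 60.8% to 99.1% of their UMIs in the library labelled IL34LacZ/+.

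The highest ratios, other than Irf7, were Tek, Eny2, Mthfd2, Adgrl2, Jun, Nav1 and Wdr17, with log2 ratios of 1.85 to 2.50 and 4 to 11 UMIs in the library labelled IL34LacZ/+. Tek, the angiopoietin receptor of endothelial cells, was detected in 13 and 5 members, and 1 barcode held 88.3% of the Wdr17 and 67.6% of the Jun UMIs of the library labelled IL34LacZ/LacZ.

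Among the 170 genes over 4-fold in haemoglobin-rich barcodes that had at least 50 UMIs, 90% lay within 1.5-fold, the median log2 ratio was −0.03, and 2 were over 2-fold higher and 5 lower, against 2.53% and 10.3% of all genes. These genes had to pass 4-fold in both libraries, which leaves out genes high in only 1 of them. Their closer agreement is thus partly set by the choice. No member of the haem, iron, membrane, redox, clearance or regulator lists with at least 50 UMIs passed 2-fold. Alas2 had a log2 ratio of −0.06 (−0.09 to −0.02), Bpgm −0.09 (−0.13 to −0.05) and Gpx1 −0.28 (−0.34 to −0.23). Rn18s-rs5 stood at 0.86 (0.84 to 0.88), with a median of 68 UMIs per barcode against 40.5.

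**Figure D5:**
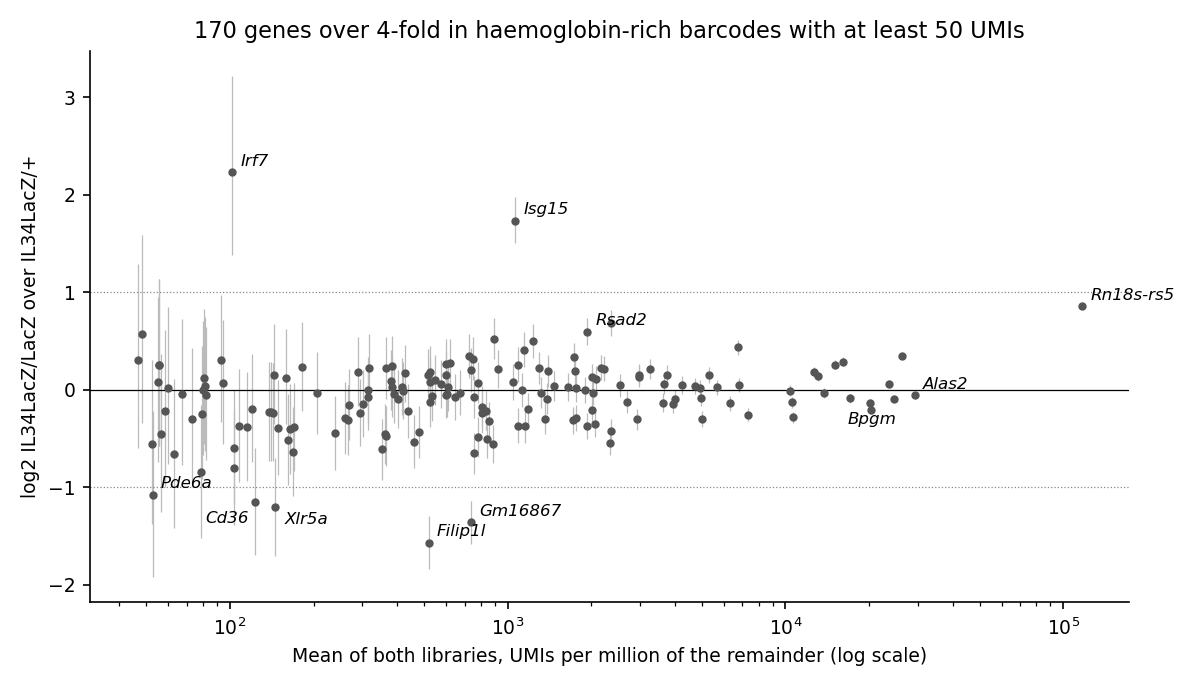
Log2 ratio of the share of the remainder between libraries, IL34LacZ/LacZ over IL34LacZ/+, against the mean level (CPM, log scale) of 170 genes over 4-fold in haemoglobin-rich barcodes; bars are exact 95% intervals for counting error and dotted lines mark 2-fold. Isg15 at 1.74 and Irf7 at 2.23 lie above, and Filip1l at −1.57 and Gm16867 at −1.36 below, while most genes lie near 0.

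The 2 higher genes are both known as genes that interferon induces. Isg15, a ubiquitin-like protein that Ube2l6 helps to attach, had 1305 UMIs in 356 barcodes of the library labelled IL34LacZ/LacZ and 165 UMIs in 82 barcodes of the library labelled IL34LacZ/+. This was 1636 against 491 CPM, a log2 ratio of 1.74 (1.501 to 1.98). Irf7, a transcription factor of the interferon response, had 134 UMIs in 70 barcodes against 12 UMIs in 9, a log2 ratio of 2.23 (1.38 to 3.22). Leaving out the 5 barcodes of each library with most Irf7 UMIs removes most of the 9 in the library labelled IL34LacZ/+. That alternative therefore cannot give the size of the ratio. With barcodes thinned to 1000 UMIs there was no ratio to give, so its size rests on few barcodes. In other barcodes of the same libraries Isg15 was at 24.7 and 23.9 and Irf7 at 3.98 and 5.08 CPM. Further interferon-induced genes, chosen after these values were seen, varied. Rsad2 was at 2324 and 1536 (log2 0.60, 0.46 to 0.74), Isg20 at 4792 and 4663 (log2 0.04, −0.05 to 0.13), and Ifitm3 at 143 and 68.4 (log2 1.06, 0.41 to 1.78). Ifit1 had 17 and 2 UMIs (log2 1.84, −0.23 to 4.998) and Ifit3 2 and 1. The intervals of Isg20 and Ifit1 include 0, and those of Rsad2 and Ifitm3 lie above it.

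By Hbb-bt group, Isg15 was at 767, 1295 and 2985 CPM from bottom to top in the library labelled IL34LacZ/LacZ and 606, 306 and 949 in the library labelled IL34LacZ/+. The log2 ratio of top over bottom was 1.96 (1.62 to 2.32) and 0.65 (−0.01 to 1.36), and only the interval of the library labelled IL34LacZ/LacZ leaves out 0. Within 6000 to 12000 UMIs the direction turned, with 761 against 1016 CPM (log2 −0.42, −1.14 to 0.31) in the library labelled IL34LacZ/LacZ and 169 against 546 (log2 −1.69, −5.08 to 0.92) in the library labelled IL34LacZ/+, and both intervals include 0. The most Isg15-rich barcode held 8.51% and 5.45% of its UMIs, and the log2 ratio between libraries ran over 1.59 to 1.85 under the alternatives. With 1 library per genotype, genotype, mouse and library cannot be told apart for this difference.

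The 5 lower genes were Filip1l, Gm16867, Xlr5a, Cd36 and Pde6a. Filip1l had 209 and 261 UMIs, a log2 ratio of −1.57 (−1.84 to −1.30), and was detected in 12% and 28.4% of members. Gm16867 had 329 and 356, with −1.36 (−1.58 to −1.14), and Xlr5a 70 and 68, with −1.21 (−1.71 to −0.70). Filip1l was also lower in other barcodes of the library labelled IL34LacZ/LacZ, at 56.4 against 95.8 CPM, and so was Gm16867 at 3.21 against 8.02. Cd36, a scavenger receptor, had 61 and 57 UMIs, of which 1 barcode held 4.92% and 24.6%, and Pde6a had 27 and 24.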

How the data were processed

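The matrices held raw UMI counts per gene and barcode, deposited by the authors; the file headers name Cell Ranger 7.1.0, and the counts are unnormalised; libraries used the 10x Chromium 3′ kit v3.1, per the labels' protocols, and the build was GRCm38.p6, called mm10 as well, per the submitters' processing notes. Each library's smallest barcode total was 500 UMIs. The annotation release, any removal of free RNA and any doublet removal are not stated in the labels or headers. All 25906 features were used, and the library labelled IL34LacZ/LacZ held 3.66969e+07 UMIs and the library labelled IL34LacZ/+ 2.66791e+07.

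Members were barcodes of at least 1000 UMIs with at least 50% in Hba-a1, Hba-a2, Hbb-bs and Hbb-bt. The remainder was every count outside these 4 and the 37 mitochondrial genes, summed per library. Shares carry Clopper-Pearson intervals, levels Poisson intervals and ratios conditional binomial intervals; UMIs count molecules, and the intervals cover counting error only. No doublet caller was run; barcodes with at least 3 markers of 1 other list were counted and left out as an alternative. Thinning drew 1000 UMIs per barcode with a fixed seed. The scripts were tested on simulated data, with Python 3.11.15, numpy 2.4.6, scipy 1.17.1, pandas 2.3.3 and matplotlib 3.10.9. No test was planned or run, since each genotype had 1 library. Positions and sequences of promoters came from RefSeq and gene positions and transcripts from GENCODE M21.

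Genes were named when they were on the erythroid lists, among the 25 most abundant genes over 4-fold in both libraries, the 15 most abundant of all, the 8 highest or 8 lowest ratios between libraries among genes with at least 50 UMIs, or markers of other cell types. The members and all lists were chosen with earlier results of these data known. Alternatives changed the haemoglobin, UMI, gene and mitochondrial limits, depth, weighting, totals and single barcodes.
The division by Hbb-bt share, the total without Rn18s-rs5, the promoters shown and the interferon genes beyond Isg15 and Irf7 were chosen after these values had been seen. Some named genes are not reported here.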

Additional observations from a re-analysis of the deposited data

How the results depend on the processing

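Each genotype had 1 library, so no value here has a replicate error, and depth limits what single barcodes can show. No paired analysis was possible because each genotype had 1 library and the labels carry no replicate numbers. Values are given for the library labelled IL34LacZ/LacZ and then for the library labelled IL34LacZ/+, and genes past 2-fold as higher and then lower in the library labelled IL34LacZ/LacZ. The Isg15 and Irf7 ratios kept their direction under every alternative that gave one. The cause of each move was not tested. Against 25.1% and 25.6%, the erythroid share of the remainder was 22.9% and 21.8% at a haemoglobin share of at least 30%, 28.9% and 31.2% at 70%, 30.2% and 32.5% at 90%, 30.1% and 33.0% without mixed barcodes, 26.9% and 27.4% without Rpl and Rps genes, 24.3% and 27.0% as the mean of single barcodes, and 29.6% and 28.0% without Rn18s-rs5. The order of the libraries turned at 30% and without Rn18s-rs5. It was 25.2% in the library labelled IL34LacZ/LacZ at no more than 15% mitochondrial UMIs. Against 47 and 192, genes past 2-fold numbered 11 and 44 at 70% haemoglobin, 7 and 23 at 90%, 5 and 33 without mixed barcodes, and 21 and 67 among genes with at least 100 UMIs, and 55 were lower without the 5 barcodes with most remainder UMIs. Members numbered 1552 in the library labelled IL34LacZ/LacZ at 90% haemoglobin and 1456 and 557 without mixed barcodes. Beta globin was 55.1% in the library labelled IL34LacZ/+ with at least 2000 UMIs and without mixed barcodes.

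With at least 500 genes, 34 and 17 members were left, with 58.4% and 55.1% beta globin, an erythroid share of 5.30% and 6.27%, Alas2 in 97.1% in the library labelled IL34LacZ/LacZ, Bpgm in 91.2% and 88.2%, 94 genes over 4-fold, of which 68 were among the 199, and 104 and 102 genes past 2-fold. Thinned to 1000 UMIs, beta globin was 57.6% and 54.1%, the erythroid share 20.9% and 22.1%, Alas2 was detected in 66.6% and 62.9%, Bpgm in 44.9% and 47.1%, 121 genes were over 4-fold, 120 of them among the 199, and 2 and 5 genes were past 2-fold. Between the top and bottom Hbb-bt groups, 2 genes were over 4-fold lower per globin UMI, and 28 higher and 0 lower within 6000 to 12000 UMIs. The order of the libraries also turned for the Hba-a2 share of alpha globin at 500 genes, for Bpgm detection at 500 genes, and for Alas2 detection with at least 2000 UMIs, at 90% haemoglobin and without mixed barcodes. Without the 5 barcodes with most Irf7 UMIs, few barcodes with the gene were left in the library labelled IL34LacZ/+, so no log2 ratio is given. Thinned barcodes gave none, since the library labelled IL34LacZ/+ then had no Irf7 UMI. The other 80 values of the main results and 32 of the secondary ones moved by less than counting error or, for counts, by less than 1.5 times, and 14 more secondary values, all shares of single globins, moved by more.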
